A study of Mus musculus with 19 samples.

Results

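TEAD1 to TEAD4 are the DNA-binding partners of YAP (gene Yap1) and TAZ (gene Wwtr1), the coactivators at the end of the Hippo pathway, and AMOTL2 and AJUBA are proteins that act on this pathway from above. The ATAC-seq peaks of these 8 genes were followed in mouse neural stem and progenitor cells (NSPs) and in the cells that differentiate from them towards astrocytes. ATAC-seq uses a transposase that cuts accessible DNA, so a peak with more reads marks a region that was open in more cells or more often. A peak was taken as a member if its centre lay in the body of Tead1, Tead2, Tead3, Tead4, Yap1, Wwtr1, Amotl2 or Ajuba, or within 20 kb of either end, in the RefSeq gene table of assembly GRCm38.p6. The rule used positions and no measured value, and it found 82 of the 90154 peaks. Of these, 63 lay in a gene body and 19 in a flank, and 7 of the flanking peaks lay inside a neighbouring gene. The study took neural stem cells from the ventricular zone of C57BL/6J mouse embryos at embryonic day 14 and grew them as free-floating neurospheres with EGF. Differentiation took place in medium with fetal bovine serum on coated plates, and 2 of the groups also received 50 ng/ml of TNF, tumor necrosis factor, a cytokine of inflammation. The 6 groups were NSPs before differentiation (3 libraries, labelled 0 h), 24 h without TNF (3), 24 h with TNF (3), 72 h without TNF (3), 72 h with TNF (3) and 1 week without TNF (4). The cells carried no transgene named in the labels, and the labels do not say that libraries of a group came from separate cultures or embryos, so p-values measure the spread between libraries, which may be technical.

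When the Hippo kinases MST and LATS are active, they phosphorylate YAP and TAZ, which are then held in the cytoplasm or degraded. When the kinases are less active, YAP and TAZ enter the nucleus and are brought to DNA by the TEAD factors, since they do not bind DNA themselves. The angiomotin family, to which AMOTL2 belongs, binds YAP and TAZ and LATS at cell junctions, and the LIM protein AJUBA holds LATS in check. The pathway is known for linking cell density, attachment and tension to growth, and in the developing brain for its part in the expansion of neural progenitors.

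Promoter sequence is shown first because most of these genes have an open region at their start whose values are followed below. The RefSeq promoter table of GRCm38.p6 held 6 of the 8 genes, and Tead1 and Tead4 are named only. The 250 bases before the start are printed for 5 genes, read towards the start, with the letters known as the core of the TEAD site, GGAATG or its reverse complement CATTCC, in capitals. The windows lie at chr17:28350806-28351055 (Tead3), chr9:8004597-8004846 (Yap1), chr3:57575877-57576126 (Wwtr1), chr9:102717554-102717803 (Amotl2, plus strand) and chr14:54577662-54577911 (Ajuba), the others on the minus strand.
Tead3: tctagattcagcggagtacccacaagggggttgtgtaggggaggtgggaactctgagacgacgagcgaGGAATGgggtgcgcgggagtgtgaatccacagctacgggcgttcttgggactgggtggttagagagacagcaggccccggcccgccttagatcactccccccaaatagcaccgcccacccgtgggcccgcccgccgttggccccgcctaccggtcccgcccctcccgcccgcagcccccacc
Yap1: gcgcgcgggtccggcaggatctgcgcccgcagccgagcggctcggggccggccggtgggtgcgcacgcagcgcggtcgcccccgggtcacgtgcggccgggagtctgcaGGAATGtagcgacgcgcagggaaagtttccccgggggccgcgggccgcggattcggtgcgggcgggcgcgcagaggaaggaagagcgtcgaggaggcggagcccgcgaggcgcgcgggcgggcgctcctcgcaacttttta
Wwtr1: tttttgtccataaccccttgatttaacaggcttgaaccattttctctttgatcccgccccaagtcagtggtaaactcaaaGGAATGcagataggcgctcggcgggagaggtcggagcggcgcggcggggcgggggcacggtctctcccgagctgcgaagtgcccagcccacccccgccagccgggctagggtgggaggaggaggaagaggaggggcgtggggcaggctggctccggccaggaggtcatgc
Amotl2: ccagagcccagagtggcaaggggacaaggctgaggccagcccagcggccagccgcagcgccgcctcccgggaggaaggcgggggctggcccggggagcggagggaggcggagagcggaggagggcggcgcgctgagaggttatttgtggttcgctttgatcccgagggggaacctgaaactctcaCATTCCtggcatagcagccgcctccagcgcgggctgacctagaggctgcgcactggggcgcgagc
Ajuba: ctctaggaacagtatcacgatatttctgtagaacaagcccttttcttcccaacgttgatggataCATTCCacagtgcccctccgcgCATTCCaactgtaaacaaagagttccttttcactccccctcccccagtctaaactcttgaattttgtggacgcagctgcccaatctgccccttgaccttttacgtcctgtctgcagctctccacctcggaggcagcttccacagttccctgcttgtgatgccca

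The TEAD letters stood in 5 of the 6 windows, once each in Tead3, Yap1, Wwtr1 and Amotl2 and 2 times in Ajuba, and not in that of Tead2. They occur in 12.6% of 32851 windows of all genes, in 11.7% of 21262 windows of protein-coding genes and in 9.50% of the 7326 protein-coding windows that lay wholly inside a peak. The windows of Tead3, Yap1, Wwtr1 and Amotl2 lay wholly inside the peak at their gene's start, 176 bases of that of Ajuba did, and that of Tead2 lay outside its peak. The match in Ajuba at bases 186 to 181 before the start fell outside the peak and that at bases 164 to 159 inside it. The AP-1 letters TGANTCA, searched on both strands like the others, stood in 0 of the 6 windows, against 6.75% of all windows. Of the protein-coding windows inside a peak, 3.79% held them. The GC box GGGCGG stood in the windows of Tead2, Tead3, Yap1, Wwtr1 and Amotl2 (5 of 6, against 67.0% of the protein-coding windows inside a peak), and CCAAT stood in that of Ajuba alone (43.4%). No match overlapped a match of another motif, and a match is a description of letters, not of binding.

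Reads in peaks ranged from 9640256 to 39349111 per library, and all values were whole reads divided by a size factor, so they are called normalised reads here. The 3 NSP libraries were the deepest, with 28636739 to 39349111 reads, and the next, of 1 week, held 25165008. Depth therefore ran with the NSP group in every comparison against NSPs, and its part was not tested. The library names carry a tag, Luc, at 72 h, 72 h with TNF and 1 week (10 libraries) and none in the other 9, so in 72 h against 24 h and in 1 week against NSPs time cannot be told apart from this tag. Of the 90154 peaks, 212 held at most 3 reads in every tagged library and at least 20 in every untagged one, and 0 of the 82 members were among them. NSP replicate 1 was the highest of the 3 NSP libraries at 6 of the 8 start peaks described below and at 61.7% of the 12248 start peaks of all genes. The summed start peaks of 5 of 6 stem and progenitor markers (Pax6 had none) lay between 4558 and 5392 normalised reads in NSPs. They lay between 2138 and 2760 at 24 h, 1777 and 2145 at 72 h and 2348 and 2623 at 1 week. Those of 5 of 7 astrocyte markers lay between 1051 and 1132 in NSPs, between 1195 and 1360 at 24 h, between 1303 and 1372 at 72 h and between 938 and 1028 at 1 week, and the defining genes Aqp4 and Slc1a2 had no start peak. The 2 oligodendrocyte lineage markers with a start peak, of 5, lay between 2540 and 3125 in NSPs and 1233 and 1331 at 24 h. They lay between 872 and 908 at 72 h and 1003 and 1152 at 1 week. Over all groups, the neuron list (2 of 5 genes) lay at 414 to 651 and that of microglia and leukocytes (1 of 6) at 13.2 to 99.8. The list of endothelial, mural and fibroblast cells (3 of 6) lay at 410 to 551. The part of other cells in the results was not tested, and in these bulk libraries fewer cells of a type and less accessibility per cell cannot be told apart.

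Over the course without TNF, the share of members called was near that of all peaks, and the counts of each direction are given by gene further on (the heat map of all 82 peaks). A peak was called higher or lower where the Benjamini-Hochberg adjusted p of limma-trend, fitted on log2(normalised reads + 1) over 88919 peaks, was under 0.05, and all 82 members were tested. At 24 h against NSPs, 19 members were higher and 25 lower, beside 24.2% higher and 23% lower among all peaks. At 72 h against 24 h, 16 were higher and 4 lower, beside 12% and 14.3% of all peaks. At 1 week against 72 h, 25 were higher and 12 lower, beside 22.5% and 16.2%. From NSPs to 1 week, 36 were higher and 24 lower, beside 33.7% and 33.6% of all peaks. The median log2 change of the members was -0.05, 0.15, 0.10 and 0.14 in these comparisons, and that of all peaks was -0.07, -0.01, 0.02 and 0.01. The group with the highest mean was 1 week for 31 members and NSPs for 24.

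**Figure D1:**
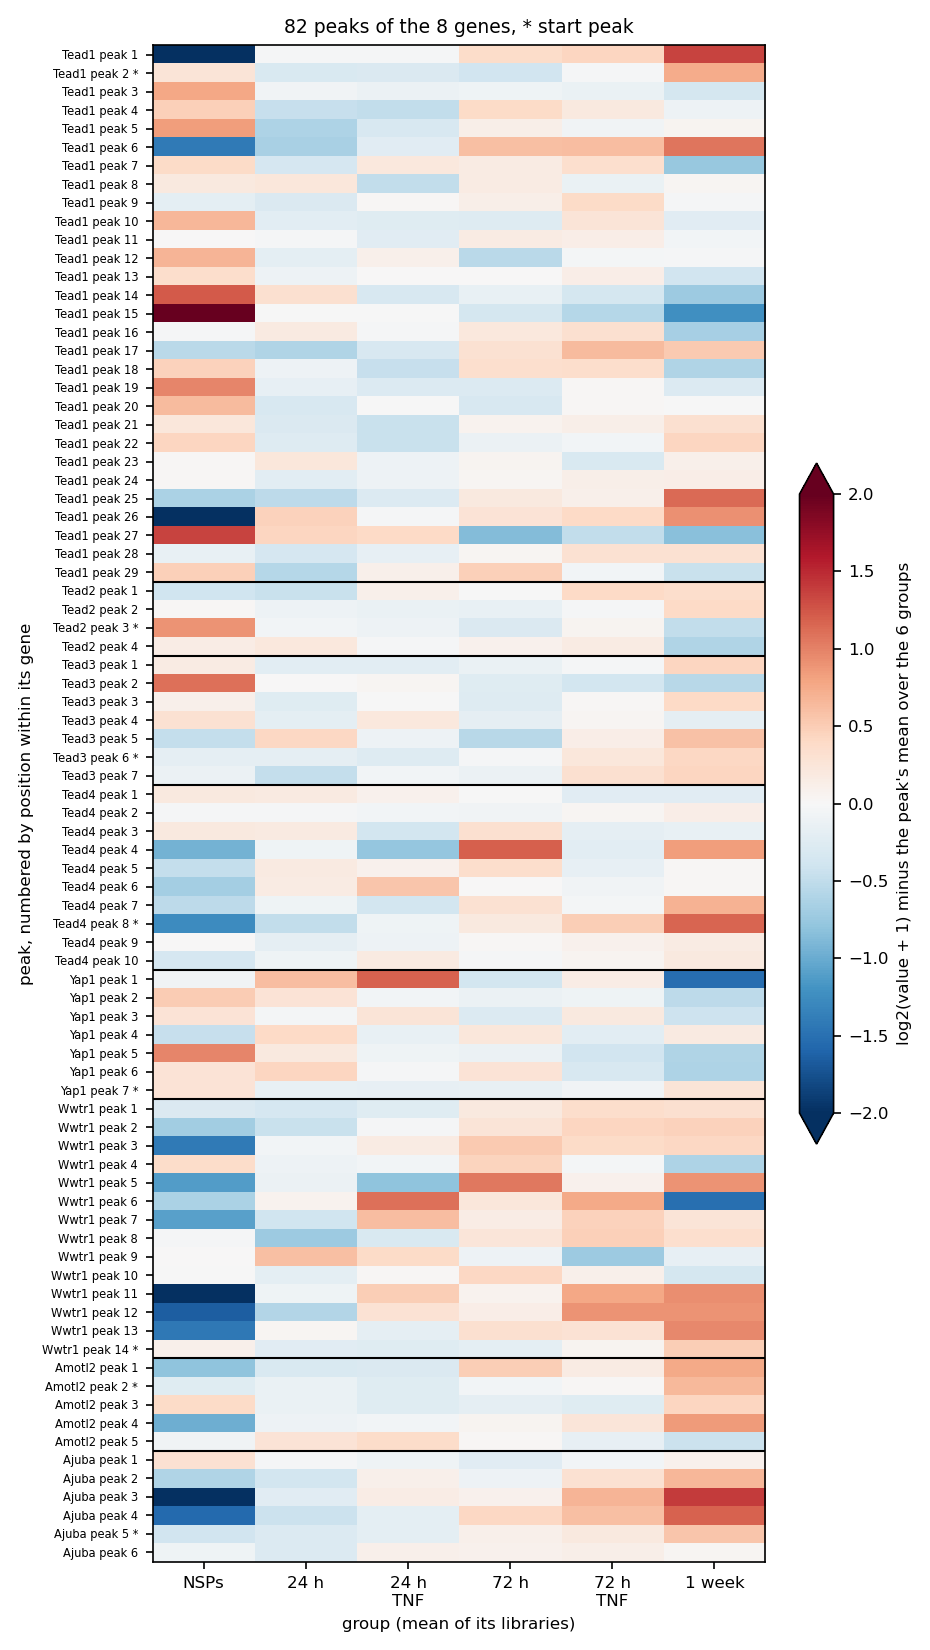
Heat map of the 82 member peaks (rows, numbered by position within each gene, an asterisk at the start peak) over the 6 groups (columns); colour is the group mean of log2(normalised reads + 1) minus the mean of the 6 groups, cut at 2. Reds at 1 week and blues in NSPs mark Ajuba peaks 2 to 5, the start peak Tead4 peak 8 and most Wwtr1 peaks, and the reverse marks Tead1 peaks 14, 15 and 27 and Yap1 peak 5.

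The split of calls depended on scaling at the first and the last step of the course. Scaling to total reads in peaks shifted the median over all peaks, on the log2 scale, from 0.02 to -0.31 at 1 week against 72 h and from -0.07 to 0.11 at 24 h against NSPs. With it, 25 members were higher and 15 lower at 24 h against NSPs, and 12 were higher and 26 lower at 1 week against 72 h, where edgeR with TMM factors gave 19 and 18. The comparison of 1 week with NSPs kept 32 higher and 24 lower with scaling to total reads. For this reason the gene-by-gene account rests mainly on 1 week against NSPs, where time cannot be told apart from the Luc tag. The NSP libraries were also the deepest. At 72 h against 24 h, scaling to total reads gave 20 higher and 2 lower. That comparison also rested on single libraries: 12 members were called without 24 h replicate 1, and 13 without 24 h replicate 2, 72 h replicate 2 or 72 h replicate 3.

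Each of the 8 genes had a peak whose centre lay within 1 kb of the gene's start, or of either end for Tead1 and Tead4, whose strand the table did not give. These start peaks are all 500 bp wide, but they differ in sequence and place, so their order between genes is a description only. The windows above ranged from 50.8% G and C (Ajuba) to 76.4% (Yap1), and the Tead2 peak was centred 807 bp into the gene. In NSPs the order was Wwtr1 (1011 ± 53.8 normalised reads, SD, n = 3), Amotl2 (894 ± 47.8), Yap1 (680 ± 135), Tead1 (331 ± 111), Tead3 (304 ± 138), Ajuba (296 ± 36.3), Tead2 (270 ± 23.4) and Tead4 (129 ± 19.4). The libraries of Tead1, Tead3, Ajuba and Tead2 overlapped from neighbour to neighbour, and those of the other neighbours did not. After 1 week the order was Amotl2 (1660 ± 136, n = 4), Wwtr1 (1333 ± 77.9), Tead4 (692 ± 39.9), Yap1 (659 ± 22.8), Ajuba (564 ± 9.92), Tead1 (449 ± 62.1), Tead3 (431 ± 16.3) and Tead2 (102 ± 8.61). Here the libraries of Tead4 and Yap1 overlapped, as did those of Tead1 and Tead3, and the other neighbours did not. Tead4 went from the lowest start peak of the 8 to the third, and Tead2 from the seventh to the lowest.

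At 1 week against NSPs, 6 of the 8 start peaks were higher and 1 (Tead2) was lower, beside 25% and 27.4% of the 12159 start peaks of all genes tested. The 6 were those of Tead1, Tead3, Tead4, Wwtr1, Amotl2 and Ajuba, and that of Yap1 passed in neither direction. At 24 h against NSPs, Tead4 was higher and Tead1, Tead2, Yap1 and Wwtr1 were lower, beside 3.62% and 42.9% of all start peaks. This became 3 higher and 1 lower with scaling to total reads, 2 and 2 with cyclic loess or without NSP replicate 1, and 1 and 2 without 24 h replicate 3. At 72 h against 24 h, Tead4 and Ajuba were higher and 0 were lower, beside 6.41% and 24.9%. At 1 week against 72 h, 7 were higher and 0 lower, beside 60.9% and 4.45%, and the median log2 change of the 8 was 0.57 against 0.43 for all start peaks. That last rise was shared by start peaks at large and depended on scaling: 5 of the 8 stayed higher with edgeR and TMM factors, 4 with scaling to total reads (and 1 lower) and 2, Tead1 and Tead4, with cyclic loess. The count of 6 higher and 1 lower at 1 week against NSPs was the same under each of these, and 4 to 6 start peaks were higher when a library was left out.

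**Figure D2:**
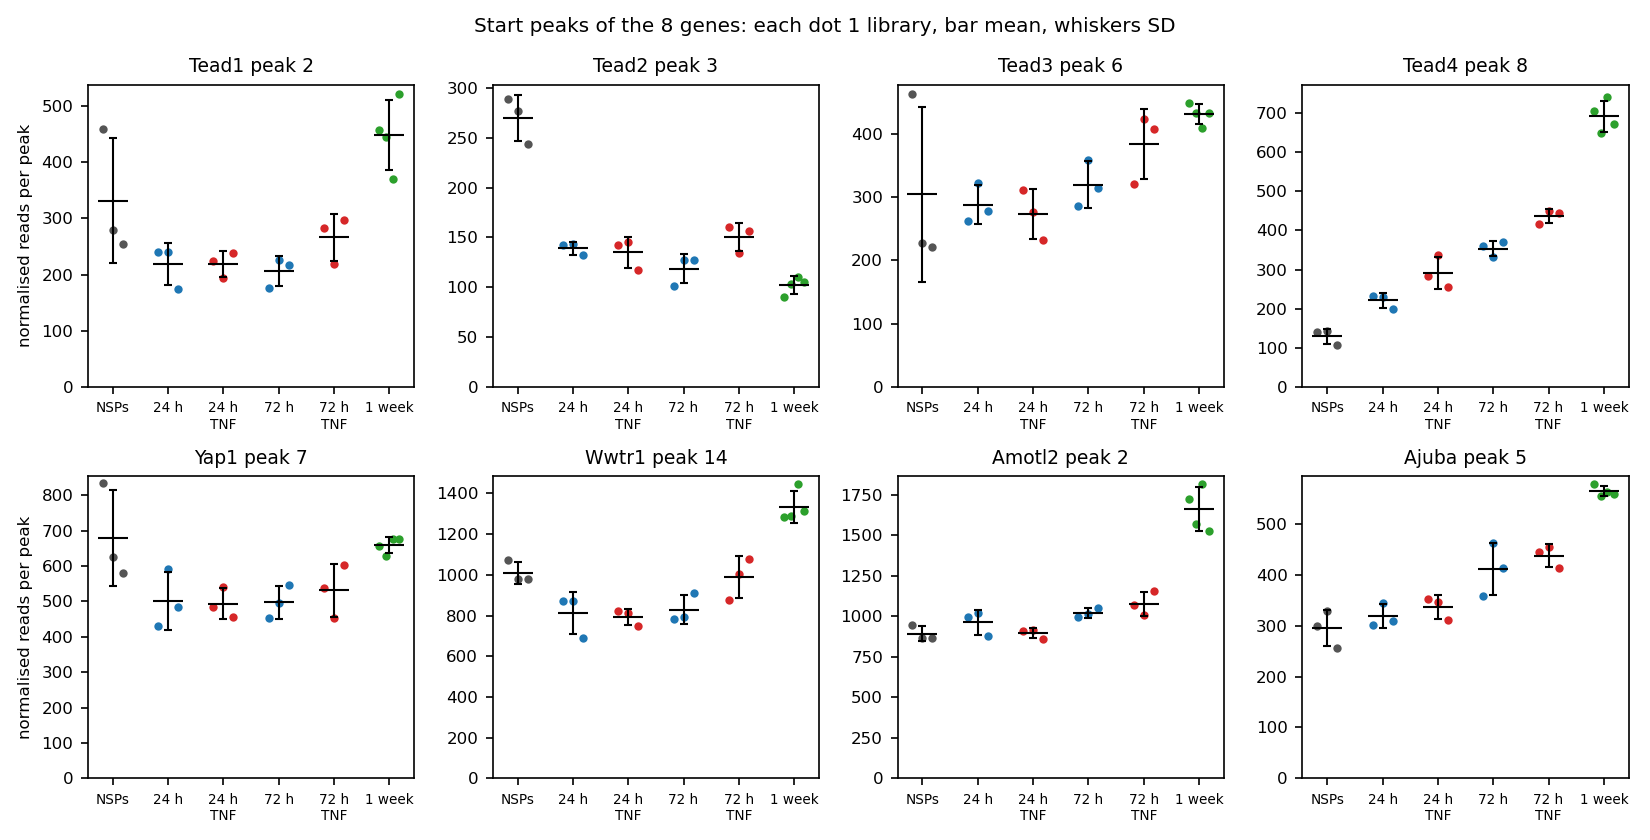
Normalised reads in the start peak of each of the 8 genes (y axis, from 0, its own scale per panel) in the 6 groups (x axis); each dot is a library, the bar is the mean and the whiskers are the SD. The 4 libraries at 1 week of Tead4 (650 to 742) lie above every other library, and those of Tead2 (89.9 to 110) lie below every NSP and 24 h library without TNF.

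Tead1, a TEAD factor expressed broadly in the embryo, had 29 peaks, 26 of them in a gene body of 227429 bp at chr7:112679356-112906784. Against NSPs, accessibility of this locus fell at more peaks than it rose, and the peaks that moved most went opposite ways. At 24 h against NSPs, 2 peaks were higher and 15 lower (3 and 10 with scaling to total reads), and at 1 week against NSPs 7 were higher and 14 lower, with a median log2 change of -0.57. The counts at 1 week against NSPs ranged from 6 to 7 higher and from 12 to 14 lower under the other scalings and tools. The summed peaks of Tead1 overlapped between NSPs (5639 to 6494 normalised reads) and 1 week (5451 to 6038). Peak 27 (chr7:112883777-112884277, in the gene body) held 1484, 941 and 1070 normalised reads in NSPs, 640, 618 and 554 at 24 h, 238, 258 and 237 at 72 h and 254, 209, 279 and 263 at 1 week. The libraries of NSPs, 24 h and 72 h did not overlap, and those of 72 h and 1 week did. It fell by 0.92 on the log2 scale to 24 h (SE 0.14, adjusted p = 2.75e-06 by limma-trend), fell by a further 1.30 to 72 h (SE 0.14, adjusted p = 6.74e-08) and passed in neither direction from 72 h to 1 week. Peak 15 (chr7:112781919-112782419) went from 147, 235 and 299 in NSPs to 45.5, 42.8 and 55.4 at 24 h and to 18.5, 14.8, 26.4 and 21.4 at 1 week. Every later library was below every NSP library, and the log2 change to 1 week was -3.39 (SE 0.29, adjusted p = 2.26e-11), the steepest fall among the 82 members.

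The peak of Tead1 with the highest mean lay 15.8 kb outside the gene. This peak 1 (chr7:112663332-112663832) held 95.2, 135 and 210 normalised reads in NSPs, 641, 493 and 652 at 24 h, 833, 728 and 774 at 72 h and 1468, 1507, 1763 and 1466 at 1 week. The libraries of these 4 groups did not overlap from one time to the next. The step from 24 h to 72 h was not called (0.40, adjusted p = 0.0781 by limma-trend). With scaling to total reads, cyclic loess or only the compared groups this step was called. Peak 1 had a mean at 1 week 10.6 times that in NSPs (log2 change 3.46, SE 0.16, adjusted p = 1.01e-17), with 2.08 of this by 24 h (adjusted p = 2.6e-11) and 0.99 between 72 h and 1 week (adjusted p = 1.65e-05). With TNF it held 608, 609 and 567 at 24 h and 827, 766 and 850 at 72 h, overlapping the libraries without TNF. The start peak, Tead1 peak 2 (chr7:112679251-112679751), dipped and recovered, with 459, 279 and 255 in NSPs, 240, 240 and 175 at 24 h, 176, 226 and 217 at 72 h and 458, 446, 370 and 521 at 1 week. It was higher at 1 week than at 72 h (log2 change 1.11, SE 0.17, adjusted p = 1.19e-05) under every alternative. Its fall to 24 h (-0.56, adjusted p = 0.0122) was lost without NSP replicate 1 or 24 h replicate 3 (adjusted p up to 0.112) and with scaling to total reads, and its rise over NSPs at 1 week (0.48, adjusted p = 0.0155) was lost without NSP replicate 2 or 3 or 1 week replicate 4 (adjusted p up to 0.135).

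At other peaks of the gene body the falls to 24 h were followed by different courses. Tead1 peak 5 (chr7:112697524-112698024) went from 388, 365 and 344 normalised reads in NSPs to 118, 152 and 129 at 24 h, back to 210, 230 and 224.3 at 72 h and to 225, 182, 194 and 257 at 1 week. It fell by 1.46 on the log2 scale to 24 h (SE 0.15, adjusted p = 2.73e-09) and rose by 0.73 to 72 h (SE 0.15, adjusted p = 0.000495). Tead1 peak 20 (chr7:112823567-112824067) fell by 0.96 on the log2 scale to 24 h (426, 443 and 459 to 188, 258 and 239, adjusted p = 9.75e-07) and at 1 week its log2 change against NSPs was -0.65 (adjusted p = 5.14e-05). Tead1 peak 26 (chr7:112877532-112878032) was chosen after its values were seen, since it went the other way, with a mean of 8.77 normalised reads in NSPs, 47.9 at 24 h and 66.3 at 1 week (log2 change 2.93 over NSPs, adjusted p = 1.74e-08). Tead1 peak 18 (chr7:112807394-112807894) held 119, 155 and 157 in NSPs, 121, 105 and 70.2 at 24 h, 116, 135 and 140 at 72 h and 89.1, 68.6, 59.4 and 57.9 at 1 week, so that the 1 week libraries lay below those of 72 h and of NSPs (-0.93, adjusted p = 0.000611, and -1.06, adjusted p = 3.42e-05). Peak 26 and peak 27 are neighbours, their centres 6.25 kb apart, and moved in opposite directions.

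**Figure D3:**
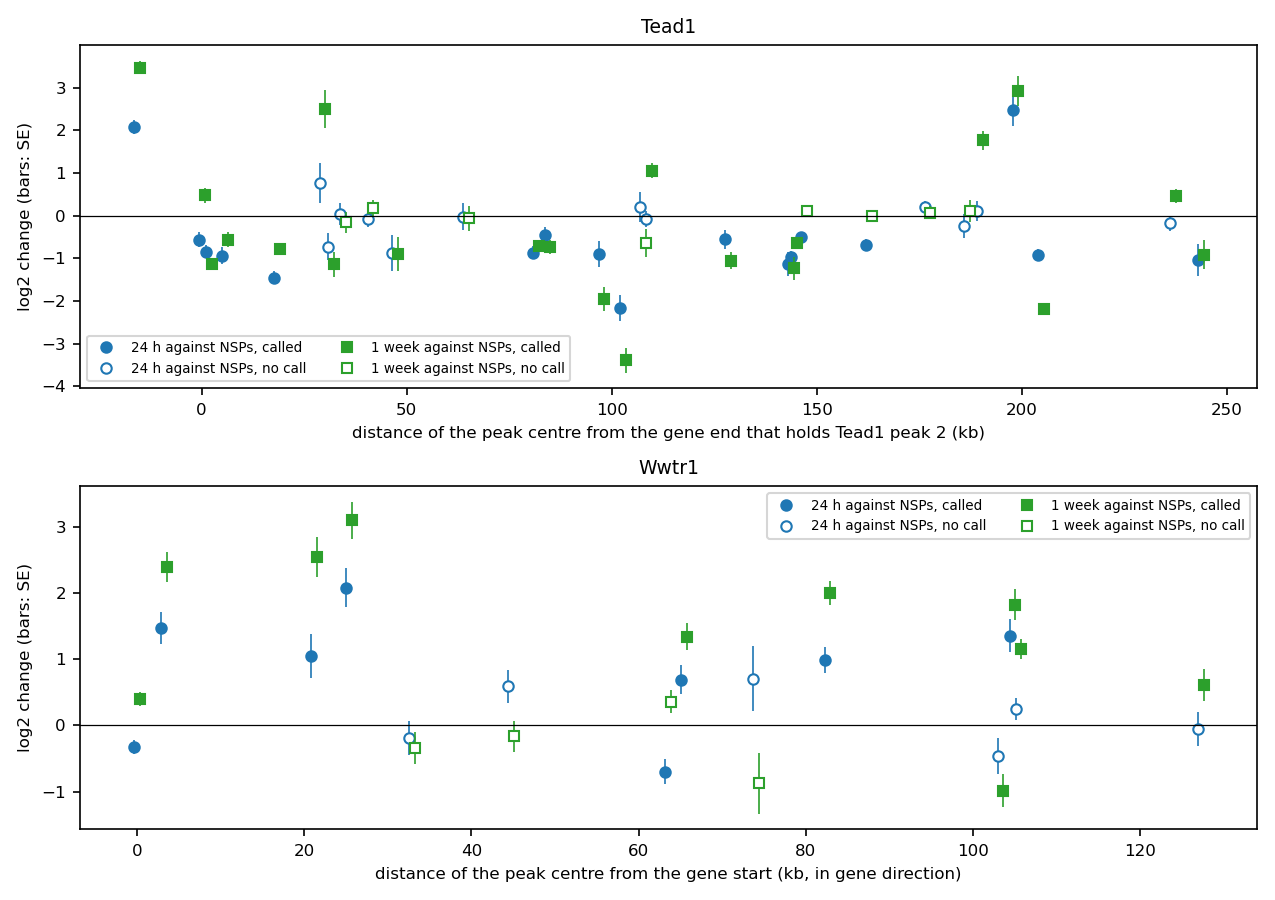
Log2 change of each Tead1 peak (upper panel) and Wwtr1 peak (lower panel) at 24 h and at 1 week against NSPs (y axis, bars SE) by the distance of its centre, in kb, from the end that holds Tead1 peak 2 or from the start of Wwtr1; filled points were called, and points of the 2 comparisons are moved slightly sideways. Most Tead1 points lie below 0 (14 called lower and 7 higher at 1 week), most Wwtr1 points above it (9 higher and 1 lower). Of all peaks, 33.7% were higher and 33.6% lower at 1 week against NSPs.

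Tead2, known for its expression in early embryos and neural progenitors, had 4 peaks, 1 of them in the gene body (chr7:45215792-45233468), and this one was the start peak that closed in part. The start peak, Tead2 peak 3 (chr7:45216349-45216849), held 289, 277 and 244 normalised reads in NSPs, 142, 143 and 132 at 24 h, 102, 127 and 127 at 72 h and 89.9, 104, 110 and 105 at 1 week. Every differentiating library, with or without TNF, was below every NSP library. The log2 change was -0.95 by 24 h (SE 0.16, adjusted p = 1.28e-05) and -1.39 by 1 week (SE 0.15, adjusted p = 1.82e-09), and no other of the 8 start peaks was lower at 1 week than in NSPs. The 3 other peaks lay inside Kash5 (peaks 1 and 2) and Cd37 (peak 4). Peak 2 (chr7:45204383-45204883), the highest of those outside the gene, had means from 232 to 263 in NSPs, at 24 h and at 72 h and 340 ± 21.1 (SD, n = 4) at 1 week, a rise over NSPs of 0.38 (adjusted p = 0.0121) that was lost without NSP replicate 1 (adjusted p = 0.0651) and with scaling to total reads or cyclic loess.

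Tead3, a TEAD factor best known from the placenta, had 7 peaks, of which 2 lay in the gene body (chr17:28331671-28350805), and its neighbourhood held a peak that closed and others that did not. Between NSPs and 1 week, 5 peaks were higher and 2 lower, beside 33.7% and 33.6% of all peaks. The counts were 2 and 2 with cyclic loess, and 1 and 2 without NSP replicate 3. Tead3 peak 2 (chr17:28315631-28316131), inside Fance, held 365, 491 and 389 normalised reads in NSPs, 166, 211 and 201 at 24 h, 153, 184 and 150 at 72 h and 154, 118, 112 and 136 at 1 week. No later library reached the lowest NSP library, and the log2 change was -1.10 by 24 h (SE 0.17, adjusted p = 3.54e-06) and -1.66 by 1 week (SE 0.16, adjusted p = 1.63e-10). Tead3 peak 1 (chr17:28313193-28313693), 2.44 kb away and outside Fance, had the highest values of the Tead3 peaks, with 1448, 1074 and 1080 in NSPs, 987, 937 and 833 at 24 h, 999, 951 and 951 at 72 h and 1421, 1395, 1492 and 1445 at 1 week. Its rise from 72 h to 1 week was 0.57 on the log2 scale (adjusted p = 0.000108), against -0.00133 with cyclic loess.

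The start peak of Tead3 (peak 6, chr17:28350649-28351149), whose sequence carries GGAATG, held 463, 228 and 221 in NSPs, 262, 322 and 278 at 24 h, 286, 359 and 314 at 72 h and 449, 433, 409 and 433 at 1 week. NSP replicate 1 lay above the 1 week libraries and the other NSP libraries below them. The rise over NSPs at 1 week was 0.59 (SE 0.17, adjusted p = 0.00376) and was lost without NSP replicate 3 (adjusted p = 0.0514). Tead3 peak 5 (chr17:28344144-28344644), in the gene body, changed direction at every step at low levels, from 21.6, 42.9 and 31.9 in NSPs to 47.8, 70.8 and 56.7 at 24 h, 33.5, 32.3 and 22.9 at 72 h and 86.4, 67.8, 70.4 and 44 at 1 week. Its rise from 72 h to 1 week (1.14, SE 0.28, adjusted p = 0.00217) held under every alternative. The earlier rise (0.88, adjusted p = 0.0176) was lost without NSP replicate 1 or 24 h replicate 2 (adjusted p up to 0.102), and the fall to 72 h (-0.96, adjusted p = 0.0185) was lost without 24 h replicate 2 or 72 h replicate 3 (adjusted p up to 0.0887).

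Tead4, a TEAD factor known for its role in the first lineage choice of the embryo and in muscle, was the TEAD gene whose start peak gained accessibility at every step. It had 10 peaks, 8 of them in the gene body (chr6:128227143-128300813). At 24 h against NSPs 5 were higher and 0 lower, beside 24.2% and 23% of all peaks. The counts were the same at 1 week against NSPs, beside 33.7% and 33.6% (4 to 6 higher and 0 lower under the other scalings and tools, and 5 and 1 without NSP replicate 1). At 72 h against 24 h, 3 were higher and 0 lower, beside 12% and 14.3%. From 72 h to 1 week, 2 were higher and 0 lower, beside 22.5% and 16.2%. Without 24 h replicate 1, 3 were higher at 24 h. Tead4 peak 8, taken as the start peak (chr6:128300251-128300751), held 139, 142 and 107 normalised reads in NSPs, 233, 230 and 200 at 24 h, 359, 331 and 370 at 72 h and 704, 650, 742 and 672 at 1 week. The libraries rose at each step without overlap. The log2 changes were 0.78 to 24 h (SE 0.13, adjusted p = 1.58e-05), 0.68 to 72 h (SE 0.13, adjusted p = 0.000346) and 0.97 to 1 week (SE 0.12, adjusted p = 1.07e-06), and the mean at 1 week was 5.35 times that in NSPs (2.42, adjusted p = 1.49e-16). It was the only member start peak called higher at every step.

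The gain was not limited to the start peak. Peak 7 (chr6:128296113-128296613), the highest of the gene, held 334, 363 and 372 in NSPs, 577, 490 and 390 at 24 h, 694, 574 and 622 at 72 h and 812, 791, 988 and 746 at 1 week, a log2 change of 1.22 over NSPs (SE 0.12, adjusted p = 7.73e-10). Its rise to 24 h (0.43) was lost without 24 h replicate 1 and with only the compared groups. The step to 72 h (0.39) was lost without 24 h replicate 2 or 3 or 72 h replicate 1 or 3. That to 1 week (0.40) was lost without 72 h replicate 2 and with scaling to total reads, cyclic loess or edgeR. Peak 4 (chr6:128244243-128244743) was low in NSPs (12.3, 20.3 and 14) and highest at 72 h without TNF (77.2, 69.4 and 66.3), a rise from 24 h of 1.29 (SE 0.31, adjusted p = 0.003). The summed peaks of Tead4 held 1175 ± 110 normalised reads in NSPs and 2452 ± 121 at 1 week (SD, n = 3 and 4).

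Yap1, which encodes YAP, kept its start peak while peaks further into the gene closed. It had 7 peaks, 6 of them in the gene body (chr9:7931999-8004638). At 1 week against NSPs 1 was higher and 5 were lower, beside 33.7% and 33.6% of all peaks. The count of 1 and 5 was the same under every other scaling and tool. The start peak (peak 7, chr9:8004460-8004960) held 834, 626 and 579 normalised reads in NSPs, 430, 590 and 484 at 24 h, 452, 495 and 546 at 72 h and 655, 628, 676 and 677 at 1 week. The NSP and 1 week libraries overlapped, with a log2 change of -0.03 (SE 0.13, adjusted p = 0.863). Its dip at 24 h (-0.43, adjusted p = 0.0104) was lost without NSP replicate 1 or 24 h replicate 1 (adjusted p up to 0.08) and with scaling to total reads or cyclic loess, and its rise from 72 h to 1 week (0.41, adjusted p = 0.0125) was lost without 72 h replicate 1 (adjusted p = 0.0748) and with 3 of the other scalings and tools.

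The closing peaks of Yap1 differed in when they fell. Peak 5 (chr9:7994194-7994694), 10.2 kb into the gene chosen after its values were seen, went from 220, 171 and 203 in NSPs to 95.6, 128 and 121 at 24 h and 54.7, 59.2, 101 and 54.7 at 1 week, a log2 change of -1.58 (SE 0.21, adjusted p = 1.98e-07) with no overlap. Peak 6 (chr9:8001285-8001785), 3.06 kb into the gene, held 113, 109 and 114 in NSPs, 149, 88.5 and 110 at 72 h and 82, 67, 55 and 42.9 at 1 week, so that its fall came between 72 h and 1 week (-0.90, SE 0.20, adjusted p = 0.000883). Peak 1 (chr9:7952905-7953405), 51.4 kb into the gene, held 57.8, 55.6 and 28.6 in NSPs and, without TNF, was highest at 24 h (78.6, 66.4 and 76.4) and lowest at 1 week (17.6, 8.57, 15.4 and 26.8), with a log2 change against NSPs of -1.45 (SE 0.33, adjusted p = 0.000327). The summed Yap1 peaks were 1565 ± 286 in NSPs and 1264 ± 86.1 at 1 week.

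Wwtr1, which encodes TAZ, gained accessibility at most of its peaks. It had 14 peaks, 13 of them in the gene body (chr3:57455644-57575910). At 1 week against NSPs 9 were higher and 1 was lower, beside 33.7% and 33.6% of all peaks. The counts were 8 or 9 higher and 1 lower under the other scalings and tools, and 8 and 2 without 1 week replicate 2. The summed peaks went from 1808 ± 268 in NSPs to 2781 ± 75.3 normalised reads at 1 week. The start peak (peak 14, chr3:57575638-57576138), whose sequence carries GGAATG, held 1073, 980 and 980 in NSPs, 872, 873 and 691 at 24 h, 781, 793 and 910 at 72 h and 1282, 1289, 1448 and 1312 at 1 week. The 1 week libraries lay above all others, 0.40 over NSPs (SE 0.10, adjusted p = 0.00122) and 0.69 over 72 h (SE 0.10, adjusted p = 9.14e-06), the latter lost with cyclic loess (adjusted p = 0.134). The dip at 24 h (-0.32, adjusted p = 0.0171) was lost without 24 h replicate 3 (adjusted p = 0.138), with only the compared groups (adjusted p = 0.0939), with scaling to total reads (-0.13, adjusted p = 0.243) and with cyclic loess (-0.083, adjusted p = 0.383).

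Inside Wwtr1, peak 5 (chr3:57493045-57493545), 82.6 kb into the gene, opened over the first 72 h. It held 61.3, 37.7 and 41.2 in NSPs, 112, 87 and 80.1 at 24 h, 211, 221 and 191 at 72 h and 196, 189, 178 and 183 at 1 week. On the log2 scale it rose by 0.99 to 24 h (SE 0.19, adjusted p = 0.000107) and by 1.17 to 72 h (SE 0.19, adjusted p = 6.16e-05), with no overlap at either step, and the libraries of 72 h and 1 week overlapped. Peak 8 (chr3:57512142-57512642) first fell, from 214, 188 and 152 to 118, 139 and 86.2 at 24 h (-0.70, adjusted p = 0.00264), and then rose to 251, 246 and 170 at 72 h (0.96, adjusted p = 0.000343). Peak 4 (chr3:57472359-57472859) was the peak that ended lower, with 181, 94.7 and 91 in NSPs and 84.6, 47.5, 37.4 and 75.1 at 1 week (-0.99, SE 0.25, adjusted p = 0.000956). Peaks 11, 12 and 13, chosen after their values were seen and lying from 3.22 to 25.4 kb into the gene, had the steepest rises over NSPs among the Wwtr1 peaks, with log2 changes of 3.10, 2.55 and 2.39 and means of 8.75, 7.29 and 39.4 normalised reads in NSPs and 79.99, 47.8 and 193 at 1 week.

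Amotl2 is both a binding partner of YAP and TAZ and a known target of TEAD-bound YAP. It had 5 peaks, 3 of them in the gene body (chr9:102717091-102733418). At 1 week against NSPs 3 were higher and 0 lower, with 1 lower under cyclic loess, beside 33.7% higher and 33.6% lower among all peaks. The start peak (peak 2, chr9:102717412-102717912), whose sequence carries CATTCC, held 949, 868 and 864 normalised reads in NSPs, 995, 1021 and 877 at 24 h, 995, 1012 and 1054 at 72 h and 1727, 1573, 1818 and 1524 at 1 week. The groups up to 72 h overlapped and were not called, although it was called higher at 24 h with scaling to total reads (0.30, adjusted p = 0.00344) and with cyclic loess (0.36, adjusted p = 0.000215), and with the latter again at 72 h (0.23, adjusted p = 0.0187). The 1 week libraries lay above all others, 0.89 over NSPs on the log2 scale (SE 0.09, adjusted p = 1.58e-09). Peak 4 (chr9:102726244-102726744), 8.69 kb into the gene, rose in 2 steps, from 334, 288 and 322 in NSPs to 609, 496 and 626 at 24 h (0.87, SE 0.12, adjusted p = 5.28e-07) and from 677, 574 and 669 at 72 h to 1014, 1079, 1215 and 1134 at 1 week (0.79, SE 0.11, adjusted p = 3.28e-06). Its mean at 1 week was 3.53 times that in NSPs. Peak 3 (chr9:102723952-102724452), 6.4 kb into the gene and the highest of the 82 members, did not share this course: it held 2480, 2045 and 2170 in NSPs, 1676, 1698 and 1330 at 24 h, 1542, 1331 and 1648 at 72 h and 2118, 2033, 2729 and 2367 at 1 week. It fell by 0.51 on the log2 scale to 24 h (adjusted p = 0.00101), and the NSP and 1 week libraries overlapped (0.05, adjusted p = 0.739).

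Ajuba, the LATS-binding LIM protein, had 6 peaks, 4 of them in the gene body (chr14:54567469-54577661), and these 4 were higher at 1 week than in NSPs under every scaling and tool, with 0 lower (1 lower without NSP replicate 1). Among all peaks, 33.7% were higher and 33.6% lower in this comparison. Ajuba peak 3 (chr14:54572732-54573232), 4.68 kb into the gene, held 130, 131 and 141 normalised reads in NSPs, 502, 462 and 511 at 24 h, 606, 581 and 633 at 72 h and 1559, 1446, 1613 and 1424 at 1 week. The groups did not overlap at any step, and the mean at 1 week was 11.3 times that in NSPs (log2 change 3.48, SE 0.10, adjusted p = 3.39e-22). Leaving out 1 library gave 3.45 to 3.52 here and 3.19 to 3.76 for Tead1 peak 1, so these rises cannot be ranked. Most of this came in the first day (1.87, SE 0.11, adjusted p = 1.97e-14) and after 72 h (1.31, SE 0.10, adjusted p = 7.13e-10), and the step of 0.30 between 24 h and 72 h (adjusted p = 0.0359) was lost without 24 h replicate 1 or 2 or any of the 72 h replicates (adjusted p up to 0.123). Peak 4 (chr14:54575566-54576066) was chosen after its values were seen and rose by 2.73 to 1 week, from a mean of 28.2 in NSPs to 183. The start peak (peak 5, chr14:54577337-54577837) moved less, with 300, 329 and 257 in NSPs, 302, 345 and 309 at 24 h, 359, 462 and 414 at 72 h and 578, 556, 563 and 560 at 1 week, 0.94 over NSPs (SE 0.11, adjusted p = 2.23e-08). Its rise from 24 h to 72 h (0.36, adjusted p = 0.026) was lost without 24 h replicate 1 or 3 or 72 h replicate 2 or 3 (adjusted p up to 0.141). The summed Ajuba peaks went from 867 ± 93.1 to 2733 ± 53.3 (SD, n = 3 and 4).

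**Figure D4:**
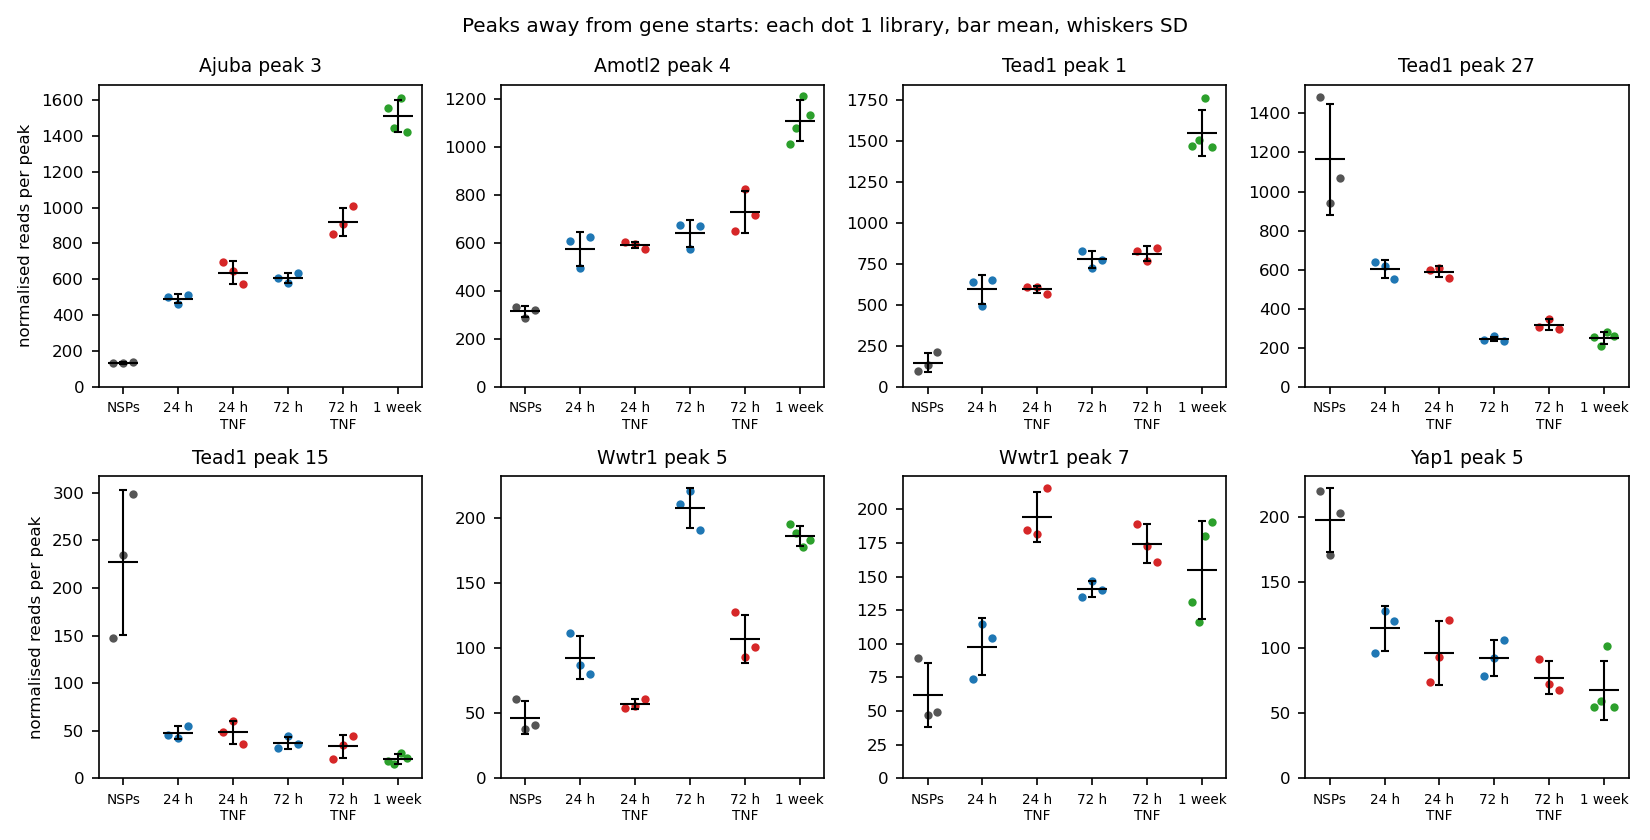
Normalised reads (y axis, from 0, its own scale per panel) in 8 peaks away from gene starts over the 6 groups (x axis); each dot is a library, the bar is the mean and the whiskers are the SD. Ajuba peak 3, Amotl2 peak 4 and Tead1 peak 1 climb to 1 week (means 1511, 1111 and 1551), Tead1 peaks 15 and 27 and Yap1 peak 5 decline from NSPs, and Wwtr1 peaks 5 and 7 split by TNF.

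Few of these peaks were called with TNF, and in the limma-trend fit of all 19 libraries those called lay in Ajuba, Tead4, Wwtr1 and Tead1, with Yap1 or Amotl2 added under other scalings and tools. The summed start peaks of the astrocyte markers were also lower with TNF, without overlap, at 951 to 1101 normalised reads against 1195 to 1360 at 24 h and at 902 to 925 against 1303 to 1372 at 72 h, and their part in these results was not tested. At 24 h, 3 of the 82 were higher with TNF than without and 1 was lower, beside 7.06% and 3.53% of all peaks (3 and 2 with scaling to total reads). Without 24 h replicate 1 or 24 h TNF replicate 1 or 2, 1 was called at 24 h, without 24 h replicate 2 there were 2, and without 24 h replicate 3 there were 6. At 72 h, 2 were higher and 2 lower, beside 6.24% and 5.55%, and 1 was higher and 5 were lower with scaling to total reads, and 2 and 4 with cyclic loess. Among the 8 start peaks, that of Tead4 was higher at 24 h (beside 1.15% higher and 0.477% lower among all start peaks), and 0 were called at 72 h (beside 2.89% and 0.707%). Of the 6 peaks called at either time, 1 was higher at both (Ajuba peak 3), 1 was lower at both (Wwtr1 peak 5), 2 were called at 24 h only and 2 at 72 h only. Over the 82 peaks, 53 had the same sign at both times, with r = 0.56, a description only, since the comparisons share no library but the peaks share genes and depths.

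Ajuba peak 3 held 502, 462 and 511 normalised reads at 24 h and 698, 644 and 571 with TNF, and 606, 581 and 633 at 72 h and 851, 906 and 1007 with TNF. Every library with TNF lay above every library without it at the same time, by 0.37 at 24 h (SE 0.11, adjusted p = 0.0227) and 0.60 at 72 h (SE 0.11, adjusted p = 0.000321). The call at 72 h held without any 1 library, and that at 24 h was lost without 24 h replicate 1 or 2 or 24 h TNF replicate 1 or 2 (adjusted p up to 0.135). Tead4 peak 8 held 233, 230 and 200 at 24 h and 285, 336 and 255 with TNF (0.40, SE 0.13, adjusted p = 0.0497), a call lost without any of 24 h replicates 1 to 3 or 24 h TNF replicate 1 or 2 (adjusted p up to 0.262). At 72 h it held 359, 331 and 370 without and 417, 451 and 444 with TNF, with no overlap but no call (0.31, adjusted p = 0.133).

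Wwtr1 held a peak that TNF lowered and another that it raised, 17.2 kb apart. Peak 5 held 112, 87 and 80.1 at 24 h and 53.9, 56 and 61.3 with TNF (-0.68, SE 0.19, adjusted p = 0.0204), and 211, 221 and 191 at 72 h and 128, 93.1 and 101 with TNF (-0.96, SE 0.19, adjusted p = 0.00113). The libraries did not overlap at either time. The call at 24 h was lost without 24 h replicate 1 or 24 h TNF replicate 1 or 2 (adjusted p up to 0.136), and that at 72 h held without any 1 library. Peak 7 (chr3:57510231-57510731) held 74, 115 and 105 at 24 h and 185, 182 and 216 with TNF (1.00, SE 0.22, adjusted p = 0.00245), and held this call without any 1 library. At 72 h it held 135, 147 and 140 without and 190, 173 and 161 with TNF (0.30, adjusted p = 0.417), and the difference between the times was -0.70 (adjusted p = 0.636).

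At 72 h, TNF lowered Tead4 peak 4, which held 77.2, 69.4 and 66.3 without and 27.7, 32.5 and 19.2 with it (-1.42, SE 0.31, adjusted p = 0.00274), and this held without any 1 library. At 24 h this peak held 25, 29.5 and 30.8 without and 20.3, 15.1 and 16.6 with TNF, with no overlap and no call (-0.69, adjusted p = 0.182). Tead1 peak 12 (chr7:112760714-112761214) held 139, 148 and 111 at 72 h and 204, 179 and 181 with TNF (0.51, SE 0.15, adjusted p = 0.0231), lost without 72 h replicate 3 or 72 h TNF replicate 1 or 3 (adjusted p up to 0.146) and with scaling to total reads (adjusted p = 0.0757). In the limma-trend fit of all 19 libraries no peak of Tead2, Tead3, Yap1 or Amotl2 was called with TNF. This did not hold for Yap1 and Amotl2 under other settings, and 1 Tead2 peak was higher at 24 h without 24 h replicate 3. Yap1 peak 6 (chr9:8001285-8001785) held 149, 88.5 and 110 at 72 h and 70.6, 75.4 and 76.8 with TNF, with no overlap (-0.60, SE 0.22, adjusted p = 0.0694). It was called lower with scaling to total reads (-0.68, adjusted p = 0.0433), by edgeR (-0.67, adjusted p = 0.0437) and by DESeq2 (-0.65, adjusted p = 0.0385). Amotl2 peak 3 was called lower at 72 h with cyclic loess (-0.23, adjusted p = 0.0261, against -0.06 and adjusted p = 0.809). By limma-trend, Tead4 peak 7 was called lower at 72 h with scaling to total reads (-0.42, adjusted p = 0.0229) and cyclic loess (-0.43, adjusted p = 0.0197). With only the compared groups it was also called (-0.34, adjusted p = 0.0242), and without these changes it was not (adjusted p = 0.092).

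The effect of TNF at 72 h minus that at 24 h was called at 0 of the 82 members by limma-trend, and also by edgeR and DESeq2, beside 0.00112% of all peaks, 1 of 88919. At an unadjusted p under 0.05 there were 6 of the 82 members, beside 6675 of the 88919 peaks, which is about the same share. The smallest p was that of Tead3 peak 5 (0.00865, adjusted p = 0.53), where TNF went with 33.6, 35.6 and 54 against 47.8, 70.8 and 56.7 at 24 h and with 43.8, 44.3 and 55.2 against 33.5, 32.3 and 22.9 at 72 h. A difference between the times in the response of these genes was therefore not shown.

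**Figure D5:**
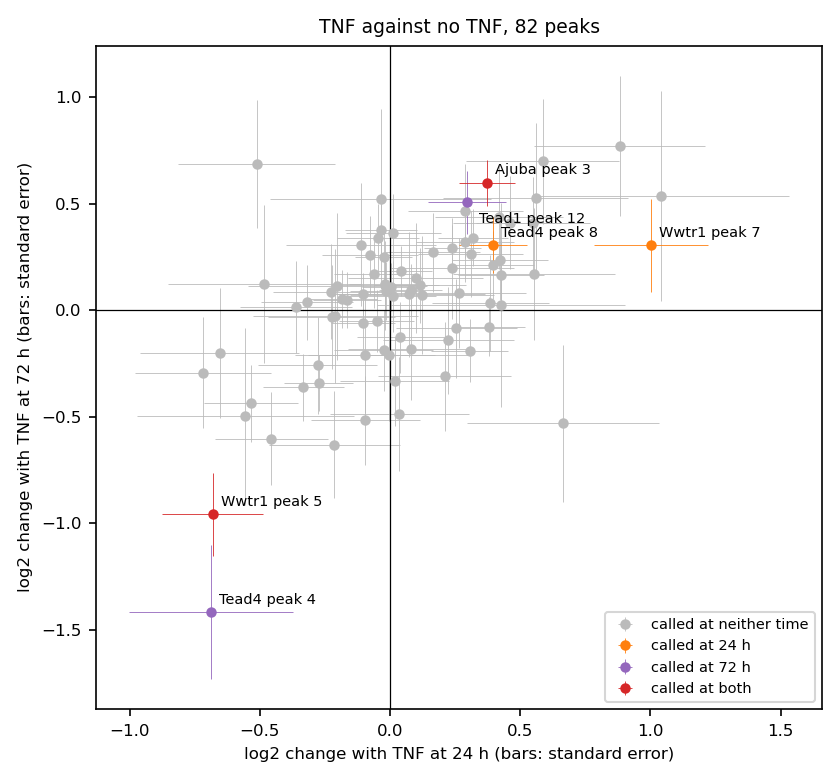
Log2 change with TNF at 24 h (x axis) and at 72 h (y axis) of the 82 member peaks, bars SE, coloured by the time at which the peak was called. Ajuba peak 3 (0.37 and 0.60) and Wwtr1 peak 5 (-0.68 and -0.96) were called at both times, and most other peaks lie near 0 on both axes.

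The wider pathway was read at start peaks only. Of 27 genes of Hippo kinases and upstream regulators, 23 had a start peak, and of 22 known YAP and TAZ target genes 19 had one (not Ankrd1, Myof and Ccdc80). Lats2 and Ptpn14 are on both lists. At 1 week against NSPs, 11 of the 23 regulators were higher and 4 lower, with a median of 0.28, and 8 of the 19 targets were higher and 7 lower, with a median of 0.02, beside a median of 0.00 over all start peaks and 25% higher and 27.4% lower among them. With cyclic loess these were 8 and 6 regulators and 6 and 8 targets. At 24 h against NSPs, 2 regulators were higher and 9 lower, and 2 targets were higher and 8 lower, close to the 3.62% higher and 42.9% lower among all start peaks. At that step 5 regulators were higher and 3 lower with scaling to total reads and 5 and 6 with cyclic loess, 2 and 5 without 24 h replicate 3, and 3 targets were higher and 6 lower with scaling to total reads. At 72 h against 24 h, 0 regulators were higher and 8 lower (5 without 72 h replicate 1), and 3 targets were higher and 5 lower (2 lower without 24 h replicate 2 or 72 h replicate 1, and 3 without 24 h replicate 1), beside 6.41% and 24.9%. At 1 week against 72 h, 20 regulators were higher and 2 lower and 14 targets were higher and 1 lower, beside the 60.9% and 4.45% given above. With scaling to total reads these were 10 and 2 and 6 and 2, and with cyclic loess 6 and 2 and 5 and 2. With TNF, 0 genes of either list were called at 24 h, and at 72 h 2 regulators were higher and 1 lower and 1 target was higher, beside 2.89% and 0.707% of all start peaks. Without 72 h TNF replicate 3, 0 regulators were higher, without 72 h replicate 1 there was 1, and without 72 h replicate 2 or 3, 2 targets were higher.

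The target genes did not move together. Ccn2, a matricellular protein widely read as a sign of YAP activity, had a start peak of 54.2 ± 12.7 normalised reads in NSPs, 194 ± 22.8 at 24 h, 387 ± 41.1 at 72 h and 523 ± 70 at 1 week, 3.26 over NSPs on the log2 scale (SE 0.16, adjusted p = 3.62e-17). Nuak2, a kinase, went from 182 ± 8.59 in NSPs to 604 ± 39.5 at 1 week (1.73, adjusted p = 4.33e-13), and Ccn1, related to Ccn2, from 310 ± 55.7 to 719 ± 28.1 (1.23, adjusted p = 9.19e-10). Igfbp3, a binding protein of insulin-like growth factors, went from 621 ± 40.1 in NSPs to 164 ± 12.5 at 72 h and 282 ± 37.7 at 1 week, with a log2 change against NSPs of -1.15 (adjusted p = 5.49e-09). Among the regulators, Wwc1, which encodes the LATS activator KIBRA, was 0.90 higher at 1 week than in NSPs (270 ± 44.2 to 501 ± 41.8, adjusted p = 3.02e-07). From 72 h to 1 week, Stk3, which encodes the kinase MST2, went from 1053 ± 89.3 to 1906 ± 247 (0.85, adjusted p = 2.59e-06), Ptpn14, a phosphatase that binds YAP, from 593 ± 59 to 1049 ± 99.8 (0.82, adjusted p = 1.68e-06) and Mob1a, the LATS cofactor, from 705 ± 41.3 to 1167 ± 65.5 (0.73, adjusted p = 9.79e-07), the last lost with cyclic loess (adjusted p = 0.0638). Across the alternatives the change of Stk3 came down to 0.19 and that of Ptpn14 to 0.34, both still called (adjusted p up to 0.0292 and 0.00245).

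The start peaks whose course over the 19 libraries was most like that of each member were sought among 12147 start peaks of other genes, by Pearson's r on log2(normalised reads + 1), as a description over libraries that share groups and depth. Tead4 was most like Relb (r = 0.98) and Osgin1 (0.97), Wwtr1 most like Zranb3 (0.99) and Nf2 (0.98), and Amotl2 most like Them6 (0.98) and the shared peak of BC005624 and Usp20 (0.97). Tead2 was most like Arhgef7 (0.97) and Rab17 (0.95), Ajuba most like Pip4k2c and Sh3bp5l (0.96 each), and Tead1 most like the shared peak of Tomt and Lamtor1 (0.97) and Bnip3l (0.95). Yap1 (Zfp438 and Tpst2, 0.93 each) and Tead3 (Btbd2, 0.94, and Zfp609, 0.92) had the lowest of these values.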

How the data were processed

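ATAC-seq libraries (19, in 6 groups given by the sample titles) were analysed for accessibility. Per the methods of the study and the submitters' processing notes, reads were trimmed with Trim Galore, aligned with Bowtie2 to mm10, cleaned of mitochondrial reads with SAMtools, called into peaks with MACS2 and tested with DiffBind, with versions not given in the sources used here. The deposited signal is the authors' normalised read count per peak and library, and its normalisation, the treatment of duplicates, the shift for the transposase and the base from which peak starts are counted were not stated there. Divided by the worth of 1 read, 100% of values came out whole within 0.001, so reads were recovered, ranging from 9640256 to 39349111 per library; these may not be single independent fragments. Of 90154 peaks, 88919 passed edgeR's filterByExpr (minimum count 10) on recovered reads, including all 82 members.

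Because the values are normalised, log2(value + 1) of the 19 libraries was modelled by limma-trend in limma 3.58.1 under R 4.3.3, using group means without covariates, with two-sided p-values adjusted by Benjamini-Hochberg over all peaks tested. Changes on this scale are smaller than the true change at low peaks. There were 7 comparisons. Alternatives were scaling to total reads, cyclic loess, a pseudocount of 8, no filter, only the compared groups and leaving out each library. Others were edgeR 4.0.16 with TMM and DESeq2 1.42.0 on recovered reads, and a replicate block numbered by title or by library name. The scripts were tested on simulated data. The members, gene lists and naming rule were chosen with earlier results of these data known. Named peaks are each gene's start peak, its peak with the highest mean and that with the largest F among peaks with a group mean of at least 50, and, per comparison, the 3 with the smallest p in each direction among calls without overlap, and for the interaction the smallest p; pathway lists name at most 4 genes each, by smallest p, and likeness names 2. Gene positions and promoter sequence came from RefSeq tables of GRCm38.p6, which gave no transcripts, so no exon, intron or UTR was assigned to a peak, and peak sequence was not analysed here.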

Additional observations from a re-analysis of the deposited data

Results flagged for a closer look

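Tead1 peak 1 at 1 week had a library that stood apart from the other 3. Replicate 3 held 1763 normalised reads and the others 1466 to 1507, with a median of 1468. The gap to the nearest library was 0.861 of the whole range of the group, above Dixon's 95% limit for 4 libraries. Replicate 3 was also the library with the fewest reads in peaks, 9640256. Chance flags about 1 in 20 such groups, and 38 values were tested. All 4 libraries lay above every library of the other groups.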

How the results depend on the processing

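The number of members called stayed within 1.5 times its value under each change of scaling, tool, filter and pseudocount. The peaks called were not always the same. At 1 week against 72 h, scaling to total reads kept 24 of the 37 calls and gained 14, and cyclic loess kept 20 and gained 5. With only the compared groups in the fit, TNF at 24 h gave 8 calls and TNF at 72 h gave 12, against 4 each. Leaving out one library gave 35 to 43 calls at 24 h against NSPs, 12 to 17 at 72 h against 24 h, 28 to 38 at 1 week against 72 h, 52 to 60 at 1 week against NSPs, 1 to 6 for TNF at 24 h and 3 to 5 for TNF at 72 h. Cyclic loess reversed Tead3 peak 1 (-0.00133) and Amotl2 peak 3 (-0.077) at 1 week against 72 h and Amotl2 peak 3 at 1 week against NSPs (-0.16, adjusted p = 0.0298 by limma-trend), and scaling to total reads reversed Tead1 peaks 20 (-0.027) and 27 (-0.31, adjusted p = 0.034) at 1 week against 72 h; the cause was not tested. Whether the replicate numbers pair the libraries was not settled. By title, deviations from the group means of same-numbered libraries correlated at -0.045 to 0.106. For 24 h and 24 h with TNF this was 0.026 to 0.106, against -0.066 to 0.036 for other pairs. The library names at 72 h with TNF carry 2 to 4 where the titles carry 1 to 3. By name, 72 h and 72 h with TNF gave 0.023 to 0.031, against -0.045 to 0.020. Over all peaks, a replicate block by name left 4072 higher and 3401 lower with TNF at 72 h, against 5551 and 4932. Its member calls in the 7 comparisons were 44, 20, 35, 60, 3, 4 and 0. A block by title gave 44, 20, 34, 55, 3, 4 and 0. It lost the calls of Tead4 peak 8 with TNF at 24 h, of Tead1 peak 2 and Tead3 peak 1 at 1 week against NSPs and of Tead3 peak 6 and Tead1 peak 20 at 1 week against 72 h. Of the group means of summed peaks per gene, 32 moved by at least the group's SD with scaling to total reads, and 16 by less. With cyclic loess, 17 moved by at least the SD and 31 by less. Depth limits the low peaks most: members held as few as 1 read in a library.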
